A study of Mus musculus with 9 samples.

Results

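The Rab GTPases are the largest branch of the Ras superfamily, and they were followed here across 3 lines of B16F10, a melanin-producing mouse melanoma cell line. Members were the protein-coding mouse genes whose symbol is Rab followed by a number, with or without a letter: 59 of 51717 genes, of which 21785 are protein-coding. Within them, Rab27a, Rab38, Rab32 and Rab17, which are tied to the melanosome or to pigment transfer, were set beside the other 55. The 3 lines carried a non-targeting control (called control below), a Sirpa knockdown, or Sirpa overexpression; SIRPA is an inhibitory receptor best known from macrophages. Each line gave 3 libraries, described as biological repeats, of cells grown in DMEM with serum and antibiotics. It is not stated how these lines were derived, whether each is 1 clone or a pool, or whether the control carries the vectors of both perturbed lines. With 1 line per condition, every p-value below measures the spread between repeats of a line, not between independently made lines.

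A Rab protein switches between a GDP-bound state, held in the cytosol by GDI, and a GTP-bound state on a membrane, where it recruits effectors such as motors and tethers. Exchange factors load GTP, GTPase-activating proteins end the active state, and a lipid anchor added by Rab geranylgeranyl transferase holds the protein on its membrane. In melanocytes, Rab32 and Rab38 direct pigment enzymes such as tyrosinase to maturing melanosomes, Rab27a holds mature melanosomes on actin at the cell periphery through melanophilin and myosin Va, and Rab17 has been placed in melanosome release.

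Depth ranged from 16404396 to 22379203 estimated counts per library. Sirpa checked the labels: its level was 295 ± 7.40 CPM (counts scaled to library size) in controls, 115 ± 2.98 in knockdown and 902 ± 10.0 in overexpression (mean ± SD, n = 3). All 12 melanocyte markers were measured above the filter on low counts, and their summed level was 15350 to 15620 TPM (transcript share scaled by length and depth, a level per length) in controls, 14970 to 16040 in knockdown and 16900 to 16910 in overexpression. Of these 12, 1 was higher and 7 were lower in knockdown, while 5 were higher and 3 lower in overexpression. That is 66.7% in each, beside 35.4% of all genes in knockdown and 24.3% in overexpression (test below). The part of these markers in the Rab results was not tested. Of 12 leukocyte markers 6 were at 0 in every library, Ptprc and Adgre1 among them, and the list summed to 3.418 to 4.741 TPM in controls, 5.502 to 8.775 in knockdown and 3.792 to 5.165 in overexpression. Of 8 epithelial markers 7 were at 0, and the list stayed at or below 1.108 TPM. The 12 stromal and endothelial markers summed to 135.9 to 146.7 TPM in controls, 172.3 to 201.4 in knockdown and 155.7 to 169.3 in overexpression, most of it from Eng, and 3 of them were at 0. In bulk RNA, fewer cells of one state and less RNA per cell cannot be told apart.

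Promoter sequence is shown first for Rab27a and Rab17, the pair of Rabs that moved in opposite directions in the perturbed lines, and for Rab21, which rose in both. RefSeq windows of the 250 bases before a start were available for 48 of the 59 members (60 windows), not including Rab38. Each is printed 5′ to 3′ on the gene's strand in GRCm38.p6, a different build from the mm39 of the submitters' processing notes. Capitals mark CACGTG, the palindromic E-box letters that MITF, the main melanocyte transcription factor, can bind. The Rab27a window, chr9:73044560-73044809 on the plus strand, ends within 47 bases of the annotated starts of its main transcripts Rab27a-201 and Rab27a-203. The Rab17 window, chr1:90967668-90967917 on the minus strand, precedes the start of Rab17-204, a minor transcript. The Rab21 window is chr10:115315592-115315841 on the minus strand.
Rab27a: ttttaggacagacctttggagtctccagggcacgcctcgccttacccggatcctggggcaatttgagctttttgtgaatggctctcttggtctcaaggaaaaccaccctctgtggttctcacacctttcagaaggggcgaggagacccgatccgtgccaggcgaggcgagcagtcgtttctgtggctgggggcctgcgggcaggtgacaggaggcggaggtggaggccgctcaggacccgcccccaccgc
Rab17: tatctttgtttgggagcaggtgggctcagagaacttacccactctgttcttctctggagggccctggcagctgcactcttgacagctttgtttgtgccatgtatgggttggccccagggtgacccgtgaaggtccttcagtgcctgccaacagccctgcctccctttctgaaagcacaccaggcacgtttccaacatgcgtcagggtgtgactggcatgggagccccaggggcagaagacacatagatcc
Rab21: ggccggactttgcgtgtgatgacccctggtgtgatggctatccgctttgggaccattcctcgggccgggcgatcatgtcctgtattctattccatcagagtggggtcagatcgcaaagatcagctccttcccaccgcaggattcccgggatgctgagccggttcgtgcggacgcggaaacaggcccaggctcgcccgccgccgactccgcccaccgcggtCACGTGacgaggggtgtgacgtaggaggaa
The letters CACGTG were found in 5 of 60 Rab windows (8.33%), against 6.02% of all 32851 promoter windows, and the related CATGTG, searched on both strands, in 10.0% against 12.3%. Neither motif was in the printed windows of Rab27a and Rab17 or in that of Rab32 (chr10:10558208-10558457, minus strand). Rab21 held CACGTG 30 bases before its start. Of the other Rabs called higher in both lines, Rab7, Rab8b and Rab33b held no CACGTG in their windows, and Rab38 had no window. A second RefSeq start of Rab27a (window chr9:73063898-73064147) had CACGTG 246 bases upstream, with no annotated transcript start within 100 bases. Rab5a, Rab20 and Rab23 were the other members with CACGTG. Such a match is a description of letters and not a binding site.

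The Rab family was broadly expressed. In controls 46 of the 59 genes reached a mean of 1 TPM and 8 reached 100 TPM. Rab7, the late endosome and lysosome Rab, was the most abundant at 388 ± 5.62 TPM, followed by Rab38 at 295 ± 7.01. Next came Rab1a, which acts between endoplasmic reticulum and Golgi, at 177 TPM, the early endosome gene Rab5c at 161, and the recycling endosome gene Rab11a at 127. The control libraries of these 5 genes did not overlap between neighbours in the order. Rab11a, Rab14, Rab2a and Rab34 did overlap with their neighbours, so their order was not resolved. Rab27a was the ninth gene, Rab32 the 23rd and Rab17 the 35th.

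**Figure D1:**
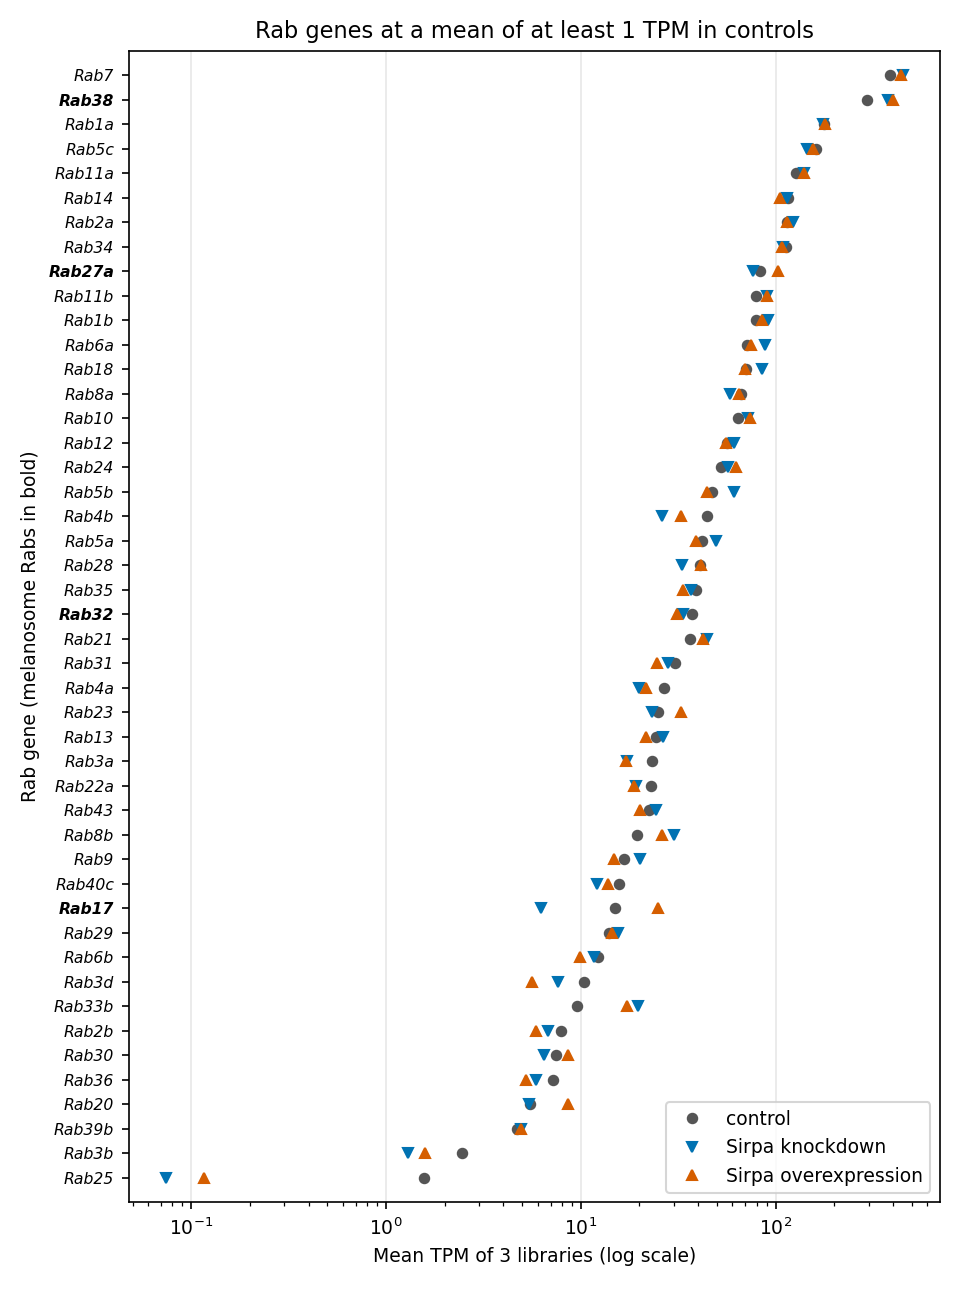
Mean TPM of 3 libraries (log axis) of the 46 Rab genes that reached 1 TPM in controls, ordered by their control level, with grey circles for control, blue triangles for Sirpa knockdown and orange triangles for Sirpa overexpression. Rab38 lies second in all 3 lines, while Rab17 drops to 6.21 TPM in knockdown and climbs to 24.9 TPM in overexpression. The Rab25 mean in controls rests on 1 library.

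Summed over all 59 genes, Rab mRNA was 2707 to 2755 TPM in controls, 2893 to 2943 in knockdown and 2865 to 2948 in overexpression. On this scale the libraries of both perturbed lines lay above all controls. Rab38 and Rab7 made up much of the difference of the means: 82 and 62 of 186 TPM in knockdown, and 104 and 50 of 174 TPM in overexpression. The 4 melanosome Rabs together were 422.5 to 438.9 TPM in controls, 485.1 to 506.1 in knockdown and 552 to 566.8 in overexpression. They held 15.8%, 16.9% and 19.2% of the family's mRNA. These sums are descriptions and were not tested. TPM was used as deposited, without the scaling between libraries behind CPM and the fits, so differences between lines can depend on the scale. Rab2a, which has 1 transcript, went from 114 TPM in controls to 123 in knockdown and 114 in overexpression. In CPM it went from 156 to 159 and 151, with log2 fold changes of 0.03 and -0.05 that were not called.

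Of the 59 genes, 49 passed the filter and were tested. The other 10 were Rab19, Rab25, Rab26, Rab33a, Rab37, Rab39, Rab3c, Rab40b, Rab42 and Rab44, of which Rab26, Rab39, Rab3c and Rab42 had no counts in any library. A gene was called at an adjusted p under 0.05 over all 13064 genes tested (quasi-likelihood test of edgeR, Benjamini-Hochberg adjustment). In knockdown against control 8 Rabs were higher and 11 lower, 38.8% of those tested, beside 35.4% of all genes (18% higher and 17.4% lower). The 8 include Rab27b, which passed the filter only through the knockdown libraries, where it is high. In overexpression against control 8 were higher and 8 lower, 32.7% beside 24.3% of all genes (13.1% and 11.1%). Between the perturbed lines 6 were higher in overexpression and 7 lower, 26.5% beside 22.1% (11% and 11.1%). The 3 libraries of one line lay wholly apart from those of the other for 26, 27 and 22 of the 49 Rabs, beside 45.8%, 40.4% and 35.9% of all genes. The median log2 fold change of the tested Rabs was -0.01, -0.04 and -0.06 in these comparisons, beside -0.01, 0.00 and 0.00 for all genes.

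All 4 melanosome Rabs were called in both comparisons with control, beside 15 of 45 other tested Rabs in knockdown (33.3%, Rab27b among them) and 12 of 45 in overexpression (26.7%). The 4 calls became 3 in overexpression without any single control or overexpression library, which ended that of Rab17, and 3 in knockdown without control replicate 2 or knockdown replicate 2 or 3, which ended that of Rab32. In knockdown 1 of the 4 was higher and 3 were lower, and in overexpression 3 were higher and 1 lower. Their median absolute log2 fold change was 0.26 in knockdown and 0.35 in overexpression, against 0.14 and 0.15 for the other Rabs and 0.22 and 0.18 for all genes. Both comparisons use the same control libraries. With 4 genes chosen by name, these counts describe the 4 and are no test of the group.

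Rab27a (ENSMUSG00000032202, chromosome 9), the melanosome Rab that recruits melanophilin and myosin Va, fell in knockdown and rose in overexpression. Its level was 161.9, 162.5 and 173.3 CPM in the controls, 150.5, 142.1 and 143.0 in knockdown, and 205.5, 197.2 and 198.9 in overexpression. The 3 lines did not overlap, with knockdown lowest and overexpression highest. The log2 fold change was -0.19 ± 0.05 (SE; adjusted p = 0.00321) in knockdown and 0.27 ± 0.04 (adjusted p = 0.000294) in overexpression, a 1.14-fold decrease and a 1.21-fold increase. Overexpression exceeded knockdown 1.38-fold (adjusted p = 1.55e-06). These calls held under each alternative fit and without each library. The coding transcript Rab27a-201 held 83.2% ± 6.86, 79.3% ± 0.91 and 78.7% ± 4.58 of the gene's TPM in the 3 lines, and Rab27a-203 nearly all of the rest.

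Rab17 (ENSMUSG00000026304, chromosome 1) moved in the same pattern with a larger size. The controls had 15.44, 16.91 and 17.50 CPM, knockdown 9.513, 4.284 and 5.713, and overexpression 22.12, 24.83 and 25.68. No library of one line reached the range of another, though knockdown replicate 1 stood well above the other knockdown libraries. Rab17 was 2.52-fold lower in knockdown (log2 fold change -1.33 ± 0.20, adjusted p = 7.26e-05) and 3.66-fold higher in overexpression than in knockdown (adjusted p = 4.23e-06). Against control the rise in overexpression, 0.54 ± 0.18 on the log2 scale, was near the threshold (adjusted p = 0.0431). It was not called without any one of the control or overexpression libraries (0.49 to 0.60, adjusted p 0.0616 to 0.135), nor with transcript length as an offset (0.69, adjusted p = 0.0938) or with the replicate block (0.54, adjusted p = 0.0601). The main transcript Rab17-201 held 93.7% ± 4.19 of the gene's TPM in controls, 85.6% ± 20.1 in knockdown and 73.7% ± 24.0 in overexpression, with a wide spread between libraries.

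Rab38 (ENSMUSG00000030559, chromosome 7), which with Rab32 carries enzymes to melanosomes and whose loss lightens the coat of chocolate mice, rose in both perturbed lines. The controls had 281.4, 271.7 and 285.6 CPM, knockdown 332.8, 341.3 and 350.3, and overexpression 368.7, 371.4 and 365.1. All 6 libraries of the perturbed lines lay above all controls. The log2 fold change was 0.29 ± 0.04 in knockdown (1.22-fold, adjusted p = 2.1e-05) and 0.40 ± 0.04 in overexpression (1.32-fold, adjusted p = 1.36e-06). The further difference of 0.11 between overexpression and knockdown passed narrowly (adjusted p = 0.0483) and was lost under 13 of 17 alternatives, among them leaving out any control or overexpression library or knockdown replicate 1 or 2 (0.09 to 0.11). A single transcript, Rab38-201, held over 98% of its TPM in every library.

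Rab32 (ENSMUSG00000019832, chromosome 10), the close relative of Rab38, fell in both perturbed lines. Its controls had 49.39, 53.47 and 49.24 CPM, knockdown 46.62, 41.36 and 42.06, and overexpression 42.91, 40.60 and 39.83. Every perturbed library was below every control, and the perturbed lines overlapped each other. The log2 fold change was -0.22 ± 0.07 in knockdown (adjusted p = 0.0243) and -0.30 ± 0.07 in overexpression (adjusted p = 0.00627). The knockdown call was lost without control replicate 2 (-0.18), knockdown replicate 2 (-0.19) or knockdown replicate 3 (-0.20), with adjusted p up to 0.111, and with transcript length as an offset (-0.21, adjusted p = 0.0935). Overexpression and knockdown differed by -0.08 (adjusted p = 0.506). Rab32 and Rab38 moved in opposite directions in both lines, and per length Rab38 was the more abundant in each, with mean levels of 295 against 37.0 TPM in controls and 377 against 33.4 TPM in knockdown.

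**Figure D2:**
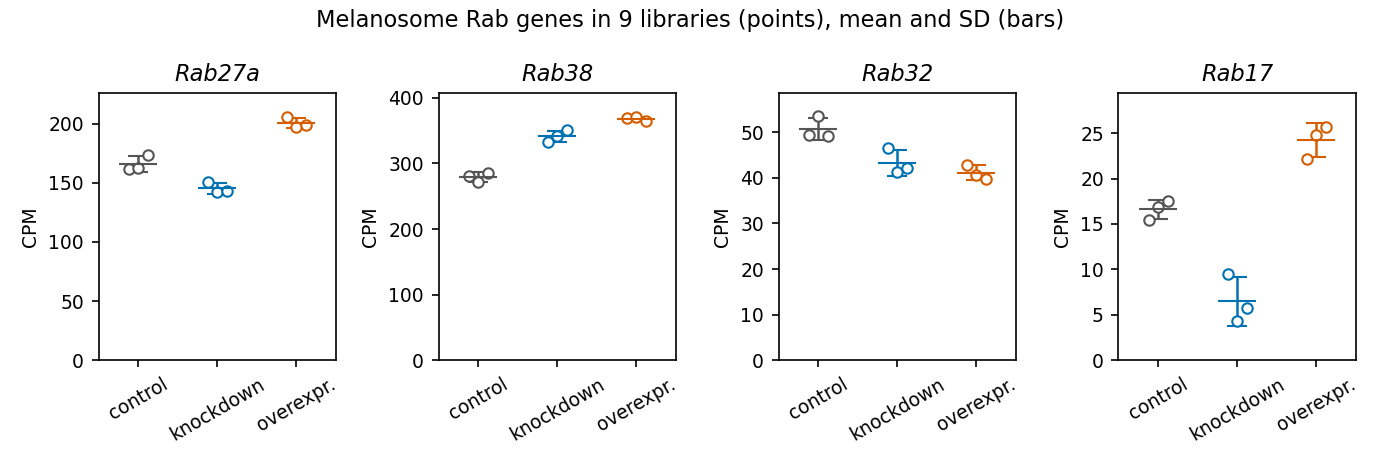
Level in CPM of Rab27a, Rab38, Rab32 and Rab17 in the 9 libraries (points), with the mean and SD of each line (bars). The axes start at 0 and differ between genes. Rab27a and Rab17 are lowest in knockdown and highest in overexpression, Rab38 is above control in both perturbed lines, and Rab32 is below it in both.

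Rab27a and Rab17 were the 2 Rabs called in opposite directions in the perturbed lines, and no Rab was higher in knockdown and lower in overexpression. For Rab17 this rests on the overexpression call near the threshold, which 8 of 17 alternatives did not make. Rab38, Rab7, Rab21, Rab33b and Rab8b were higher in both, Rab32, Rab31, Rab3a and Rab4b were lower in both, and 25 of the 49 tested were called in neither comparison with control. The 2 comparisons share their controls.

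**Figure D3:**
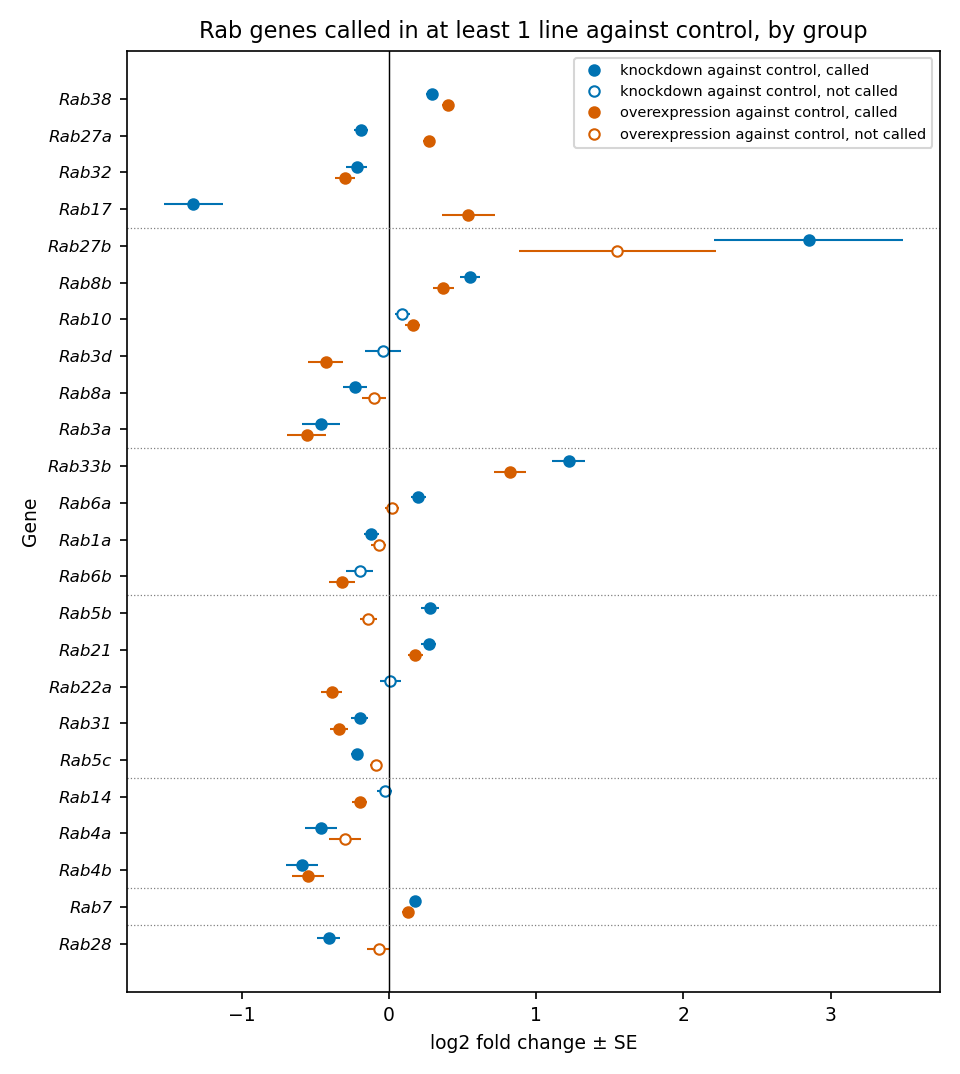
Log2 fold change against control with its SE for the 24 Rab genes called in at least 1 line, with knockdown in blue and overexpression in orange. Filled points were called at an adjusted p under 0.05 and open points were not, and dotted lines separate, from the top, melanosome, exocytic, ER and Golgi, early endosome, recycling endosome, late endosome and other Rabs. Rab27b, at the far right, rests on few counts.

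Among the exocytic Rabs, which serve secretion and delivery to the plasma membrane, 8 of 11 were tested, and 2 were higher and 2 lower in each comparison with control. These are 50% called in each, beside 35.4% and 24.3% of all genes, and the knockdown count includes Rab27b. Rab8b, which acts in exocytosis and membrane protrusion, rose in both lines. Its level was 66.97, 60.44 and 65.01 CPM in controls, 100.1, 88.66 and 92.02 in knockdown, and 81.15, 80.55 and 87.00 in overexpression. All perturbed libraries exceeded all controls, by 1.46-fold in knockdown (0.55 ± 0.07, adjusted p = 8.2e-06) and 1.29-fold in overexpression (0.37 ± 0.07, adjusted p = 0.000648). Its paralogue Rab8a moved the other way in knockdown, from 71.6 ± 3.72 to 60.9 ± 6.12 CPM (-0.23, adjusted p = 0.0386), a call lost without any control library, without knockdown replicate 1 or 3 or without overexpression replicate 2 (-0.16 to -0.26), and with the replicate block (-0.23, adjusted p = 0.0516). Rab3a, a Rab of regulated secretion, fell from 18.3 ± 1.37 CPM to 13.3 ± 2.40 in knockdown (-0.46, adjusted p = 0.0129) and 12.4 ± 0.280 in overexpression (-0.56, adjusted p = 0.0057). The knockdown call of Rab3a was lost without knockdown replicate 1 (-0.32) or control replicate 1 (-0.42).

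Rab3d, which acts on secretory granules, fell in overexpression, from 16.7 ± 1.86 to 12.4 ± 0.166 CPM (-0.43, adjusted p = 0.0163), and was 16.2 ± 1.51 CPM in knockdown, which was not called (-0.04). The difference between overexpression and knockdown was itself called (-0.39, adjusted p = 0.0303) but was lost without knockdown replicate 1 (-0.31) or any overexpression library (-0.38 to -0.40), and the call against control was lost without control replicate 2 (-0.34) or overexpression replicate 1 (-0.42). Rab10, which delivers vesicles to the plasma membrane, rose slightly in overexpression, from 153 ± 3.56 to 171 ± 7.57 CPM (0.16, adjusted p = 0.0157). Leaving out control replicate 1 or 3 (0.15) or overexpression replicate 2 (0.13) ended that call. Knockdown had 163 ± 4.01 CPM of Rab10, which was not called (0.09, adjusted p = 0.119), nor was the difference between the perturbed lines (0.07, adjusted p = 0.335).

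Rab27b (ENSMUSG00000024511), the paralogue of Rab27a best known from secretory cells, stayed close to the detection limit. It had 0.1838, 0.1819 and 0.1479 CPM in controls, 1.217, 1.369 and 1.216 in knockdown, and 0.3301, 0.6473 and 0.5731 in overexpression. These levels rest on 9, 70 and 28 counts summed over the libraries of each line, and the lines did not overlap. The ratio to control was 7.45 (95% exact binomial interval 3.71 to 17.0) in knockdown and 2.97 (1.36 to 7.15) in overexpression, intervals that cover counting error only. Rab27b passed the filter on low counts only through the knockdown libraries, where it is high, so its call there adds nothing to these counts. In the fit across all genes knockdown was called (2.85 ± 0.64, adjusted p = 0.00237) and overexpression was not (1.55, adjusted p = 0.106), while the difference between the perturbed lines missed the threshold (-1.29, adjusted p = 0.117). At its knockdown level of 0.601 TPM, Rab27b remained far below the 76.9 TPM of Rab27a.

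Of the 16 Rabs placed at the endoplasmic reticulum and Golgi 13 were tested, with 2 higher and 1 lower in knockdown and 1 higher and 1 lower in overexpression. These are 23.1% and 15.4% called, beside 35.4% and 24.3% of all genes. A large change, after Rab27b and Rab17, belonged to Rab33b, a Golgi Rab that also acts in autophagosome formation. Its level was 17.77, 14.49 and 16.61 CPM in controls, 37.11, 36.30 and 40.36 in knockdown, and 25.09, 33.42 and 28.08 in overexpression. The 3 lines stood apart, with knockdown 2.33-fold above control (1.22 ± 0.11, adjusted p = 4.05e-07) and overexpression 1.77-fold above it (0.82 ± 0.11, adjusted p = 5.44e-05). Overexpression lay below knockdown by -0.40 ± 0.11 (adjusted p = 0.0133), which was not called without knockdown replicate 3 (-0.36) or overexpression replicate 1 (-0.31), and was -0.15 with transcript length as an offset (adjusted p = 0.634). Rab33b shares 22.6% of its 31-base words with other genes, mainly Gm38160, so its count is less certain.

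Rab6a, which drives transport back from and within the Golgi, was 153 ± 10.9 CPM in controls, 176 ± 3.18 in knockdown (0.20, adjusted p = 0.00487) and 155 ± 4.45 in overexpression (0.02). Overexpression was lower than knockdown (-0.18, adjusted p = 0.0153), a call lost without overexpression replicate 3 (-0.17), and 21.3% of its words are shared, mainly with Mrpl48. Rab6b, its isoform best known from neurons, fell in overexpression to 24.8 ± 2.34 CPM (-0.32, adjusted p = 0.0145), but not without control replicate 3 (-0.28) or overexpression replicate 2 (-0.25). Rab1a was 313 ± 3.50 CPM in controls and 287 ± 19.4 in knockdown, a change at the threshold (-0.12, adjusted p = 0.0466) that 12 of 17 alternatives did not call, among them the removal of any single library except knockdown replicate 3 (-0.07 to -0.13).

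The 7 early endosome Rabs were all tested, with 2 higher and 2 lower in knockdown, 1 higher and 2 lower in overexpression, and 1 higher and 3 lower between overexpression and knockdown. These are 57.1%, 42.9% and 57.1% called, beside 35.4%, 24.3% and 22.1% of all genes. The Rab5 isoforms, which drive early endosome fusion, did not move together. Rab5b had 96.26, 102.8 and 102.9 CPM in controls, 123.7, 130.0 and 113.4 in knockdown, and 91.81, 89.62 and 92.96 in overexpression. Knockdown was above and overexpression below every control, with a called rise in knockdown (0.28 ± 0.06, adjusted p = 0.0011), no call in overexpression (-0.14, adjusted p = 0.0979) and a called difference between the 2 (-0.42 ± 0.06, adjusted p = 6.7e-05). Rab5c fell in knockdown from 192.0, 194.5 and 194.4 CPM to 170.8, 168.2 and 159.0 CPM (-0.22, adjusted p = 0.000714). Rab5a was called only between the perturbed lines, at 72.4 ± 6.50 CPM in knockdown and 58.2 ± 3.27 in overexpression (-0.32, adjusted p = 0.00871). The opposite difference of Rab5c between the perturbed lines (0.13, adjusted p = 0.0413) was lost under 10 of 17 alternatives, including the removal of any control library (0.12 to 0.13), knockdown replicate 3 (0.09), or overexpression replicate 1 or 3 (0.11).

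Rab22a, an early endosome Rab also linked to the recycling tubules that feed melanosomes, fell in overexpression. It had 70.10, 67.96 and 62.59 CPM in controls, 67.68, 71.41 and 62.97 in knockdown, and 52.20, 51.60 and 49.69 in overexpression. Control and knockdown overlapped, and the overexpression libraries lay below both. The log2 fold change was -0.39 ± 0.07 against control (adjusted p = 0.000724) and -0.40 ± 0.07 against knockdown (adjusted p = 0.000628). With transcript length as an offset these became -0.33 (adjusted p = 0.142) and -0.02 (adjusted p = 0.949). Rab21, which takes part in integrin endocytosis and whose promoter window is printed above, rose from 106 ± 1.33 CPM to 128 ± 2.06 in knockdown (0.27, adjusted p = 0.000354) and 120 ± 4.58 in overexpression (0.18, adjusted p = 0.0111, lost without overexpression replicate 3 at 0.15). Rab31 fell from 71.5 ± 2.38 CPM to 62.3 ± 2.31 (-0.20, adjusted p = 0.0249) and 56.4 ± 2.65 (-0.34, adjusted p = 0.00103), and its knockdown call was lost without control replicate 2 or 3 (-0.18) or knockdown replicate 3 (-0.16).

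Of 8 recycling endosome Rabs 7 were tested. In each comparison with control 2 were called, both lower. That is 28.6%, beside 35.4% of all genes in knockdown and 24.3% in overexpression. Rab4b, which returns receptors to the cell surface, had 26.41, 23.22 and 24.25 CPM in controls, 14.92, 18.03 and 16.23 in knockdown, and 15.37, 18.95 and 16.05 in overexpression. Both perturbed lines were below every control and overlapped each other (-0.59 ± 0.11, adjusted p = 0.000667, and -0.55 ± 0.11, adjusted p = 0.00184). Rab4b is less certain than most members, since 62.7% of its words are shared, mainly with the read-through gene Gm21983. Its paralogue Rab4a was 21.7 ± 1.72 CPM in controls, 15.7 ± 1.37 in knockdown (-0.46, adjusted p = 0.00483) and 17.6 ± 1.88 in overexpression (-0.30, adjusted p = 0.0677). Rab14, which acts between Golgi and endosomes, fell in overexpression from 208 ± 5.55 to 181 ± 5.84 CPM (-0.20, adjusted p = 0.00416), below its 203 ± 10.1 CPM in knockdown (-0.17, adjusted p = 0.0134, lost without overexpression replicate 1 at -0.16). The abundant Rab11a, the main Rab of the recycling endosome, was not called in any comparison, with log2 fold changes of 0.10 in knockdown and 0.06 in overexpression.

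**Figure D4:**
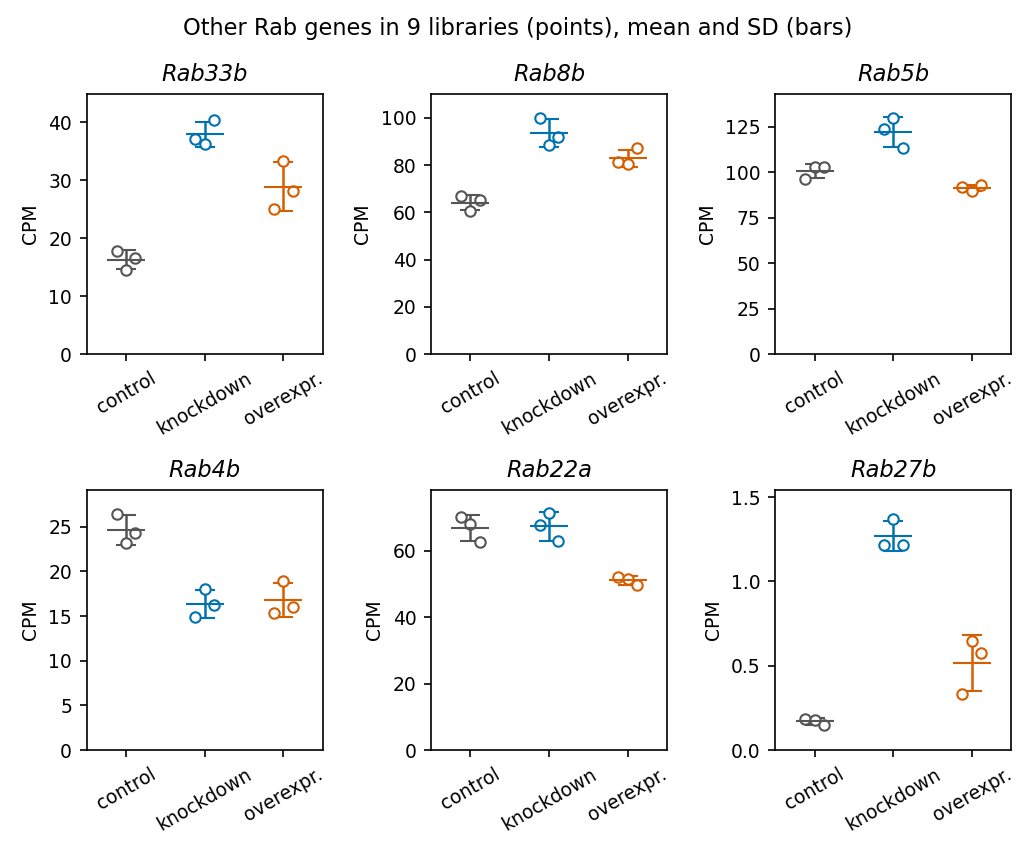
Level in CPM of Rab33b, Rab8b, Rab5b, Rab4b, Rab22a and Rab27b in the 9 libraries (points), with the mean and SD of each line (bars) and axes that start at 0 and differ between genes. Rab33b and Rab8b are above control in both perturbed lines, Rab4b is below it in both, Rab22a is low in overexpression, and Rab27b stays below 1.5 CPM throughout.

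Of the 6 late endosome and lysosome Rabs, 1 (16.7%) was called in each comparison with control, beside 35.4% and 24.3% of all genes. None was called between the perturbed lines, beside 22.1% of all genes. The called gene was Rab7. Its level was 482 ± 16.2 CPM in controls, 546 ± 8.80 in knockdown and 529 ± 8.24 in overexpression, with all perturbed libraries above all controls. The change was 0.18 ± 0.04 in knockdown (adjusted p = 0.00118) and 0.13 ± 0.04 in overexpression (adjusted p = 0.0141), the latter lost without control replicate 2 (0.12), control replicate 3 (0.13) or overexpression replicate 3 (0.12). Rab7 shares 18.4% of its words, mainly with the pseudogene Rab7-ps1. Of the remaining Rabs, Rab28, known from cilia and photoreceptors, was 38.2 ± 1.16 CPM in controls, 28.7 ± 1.76 in knockdown (-0.41, adjusted p = 0.00077) and 36.5 ± 2.42 in overexpression, a called difference of 0.34 between the perturbed lines (adjusted p = 0.00549). Rab23, a regulator of Hedgehog signalling, differed only between the perturbed lines, at 28.8 ± 3.45 and 37.6 ± 3.40 CPM (0.38, adjusted p = 0.00994), and not without knockdown replicate 3 (0.28) or overexpression replicate 2 (0.30).

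The call counts depended on how transcript length was handled. With the average transcript length of each gene and library as an offset, 14 Rabs were called in knockdown, 6 in overexpression and 5 between the perturbed lines, and 13, 6 and 5 of these were among the calls above. These are 28.6%, 12.2% and 10.2% of the tested Rabs, beside 21.4%, 12.1% and 10.9% of all genes, whose calls fell with the offset too. In overexpression the 6 were Rab27a, Rab38, Rab32, Rab31, Rab33b and Rab8b, and between the perturbed lines the 5 were Rab17, Rab27a, Rab5a, Rab5b and Rab6a. The knockdown calls that this offset ended were those of Rab1a, Rab31, Rab32, Rab3a, Rab7 and Rab8a (adjusted p 0.0508 to 0.316). Of these, Rab31 (-0.20), Rab32 (-0.21), Rab3a (-0.49), Rab7 (0.15) and Rab8a (-0.26) had log2 fold changes within 0.03 of those without the offset. The change of Rab1a went from -0.12 to -0.08. The common coefficient of variation between libraries rose from 0.097 to 0.165 with this offset.

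The machinery that loads, anchors and reads the Rabs was followed through 5 lists, in which Hps1, Hps4 and Ankrd27 each stand in more than 1. Of 7 genes for prenylation and GDI, 1 was higher and 2 lower in knockdown, and 1 was higher in overexpression, or 42.9% and 14.3% called, beside 35.4% and 24.3% of all genes. Chm, the escort protein that presents new Rabs for prenylation and is lost in choroideremia, had 14.15, 14.19 and 16.86 CPM in controls, 32.42, 30.17 and 28.93 in knockdown, and 26.12, 21.30 and 21.32 in overexpression. The 3 lines stood apart, with log2 fold changes of 1.02 ± 0.11 (adjusted p = 2.65e-06) and 0.60 ± 0.11 (adjusted p = 0.000811). The subunit gene Rabggta fell in knockdown from 13.4 ± 1.17 to 8.30 ± 1.25 CPM (-0.69, adjusted p = 0.00152), as did Chml, the second escort protein (-0.55, adjusted p = 0.0262, lost without control replicate 1 or 3 or knockdown replicate 3 at -0.44 to -0.48).

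Of 33 tested exchange factors, 7 were higher and 3 lower in knockdown, and 6 higher and 6 lower in overexpression, or 30.3% and 36.4% called, beside 35.4% and 24.3% of all genes. Rin1, which activates Rab5 and binds Ras, was low and fell in both lines, from 5.48 ± 2.53 CPM to 1.23 ± 0.390 (-2.14, adjusted p = 0.000637) and 1.78 ± 0.594 (-1.63, adjusted p = 0.00654), the latter lost without control replicate 3 (adjusted p = 0.0793). Mon1b, part of the factor that activates Rab7, rose in knockdown (0.40, adjusted p = 0.00244), and its rise in overexpression (0.27, adjusted p = 0.0376) was lost without any control library (0.25 to 0.31) or overexpression replicate 3 (0.20), with no filter (0.27) and with voom (0.26). Hps1, which with Hps4 forms the exchange factor of Rab32 and Rab38, rose in overexpression from 28.6 ± 0.739 to 37.5 ± 0.763 CPM (0.39, adjusted p = 0.00131). It was 32.5 ± 1.61 CPM in knockdown, which was not called (0.18, adjusted p = 0.0753). Among DENN-domain genes Dennd5b was lower (-0.41) and Dennd4c higher (0.43) in knockdown, and Sbf2 was lower in overexpression (-0.37), where the Rab5 factor Rin2 (0.52) was higher.

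Of 34 tested GTPase-activating proteins 8 were higher and 7 lower in knockdown, and 4 higher and 5 lower in overexpression, or 44.1% and 26.5% called, beside 35.4% and 24.3% of all genes. The count of higher genes in knockdown was 4 without control replicate 1 and 5 without knockdown replicate 2. Evi5, which acts on Rab11, rose from 47.1 ± 3.92 CPM to 75.7 ± 5.96 (0.68) and 71.5 ± 4.83 (0.60), and Tbc1d1 rose likewise (0.63 and 0.54). Sgsm2, known to act on Rab32, rose more in overexpression (0.59) than in knockdown (0.23), with a called difference of 0.36 between them (adjusted p = 0.000895). The knockdown rise of Sgsm2 was lost without control replicate 1 (0.20) or knockdown replicate 2 (0.16). Rabgap1l (-0.91 and -0.83) and Tbc1d16 (-0.53 and -0.32) fell in both lines, Tbc1d16 in overexpression not without control replicate 3 (-0.29) or overexpression replicate 2 (-0.26). Tbc1d15, which acts on Rab7, rose in knockdown (0.44).

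Of 36 tested effectors 10 were higher and 7 lower in knockdown, and 10 higher and 1 lower in overexpression, or 47.2% and 30.6% called, beside 35.4% and 24.3% of all genes. Myo5a, the myosin Va motor that Rab27a and melanophilin attach to melanosomes, had 442.4, 442.9 and 444.4 CPM in controls, 711.8, 684.3 and 708.5 in knockdown, and 649.4, 635.2 and 663.4 in overexpression. Myo5a rose in both lines (0.66 ± 0.04 and 0.55 ± 0.04), while Rab27a fell in knockdown. The linker melanophilin, named after its values were seen, was 315 ± 10.6 CPM in controls, 308 ± 10.8 in knockdown (Mlph, -0.04) and 361 ± 11.3 in overexpression (0.20, adjusted p = 0.00291). Sytl2, a Rab27 effector at the plasma membrane, rose in overexpression from 161 ± 15.5 to 237 ± 13.0 CPM (0.56), where knockdown had 178 ± 10.3 CPM (0.15, adjusted p = 0.0857).

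Sytl4, another Rab27 effector, rose from a mean of 3.48 to 9.17 CPM in knockdown (1.39 ± 0.22, adjusted p = 0.00012). Its rise in overexpression (0.70, adjusted p = 0.0308) was lost without any control library or overexpression replicate 2 or 3 (0.50 to 0.73), and with voom (0.63). The dynein adaptor Bicd2, which binds Rab6, fell in knockdown from 92.2 ± 4.42 to 58.1 ± 1.49 CPM (-0.66) and was 98.3 ± 7.41 CPM in overexpression. Mical3, which acts with Rab8 in vesicle fusion, rose in both (0.42 and 0.36), as did the Rab7 effector Plekhm1 (0.28 and 0.27).

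**Figure D5:**
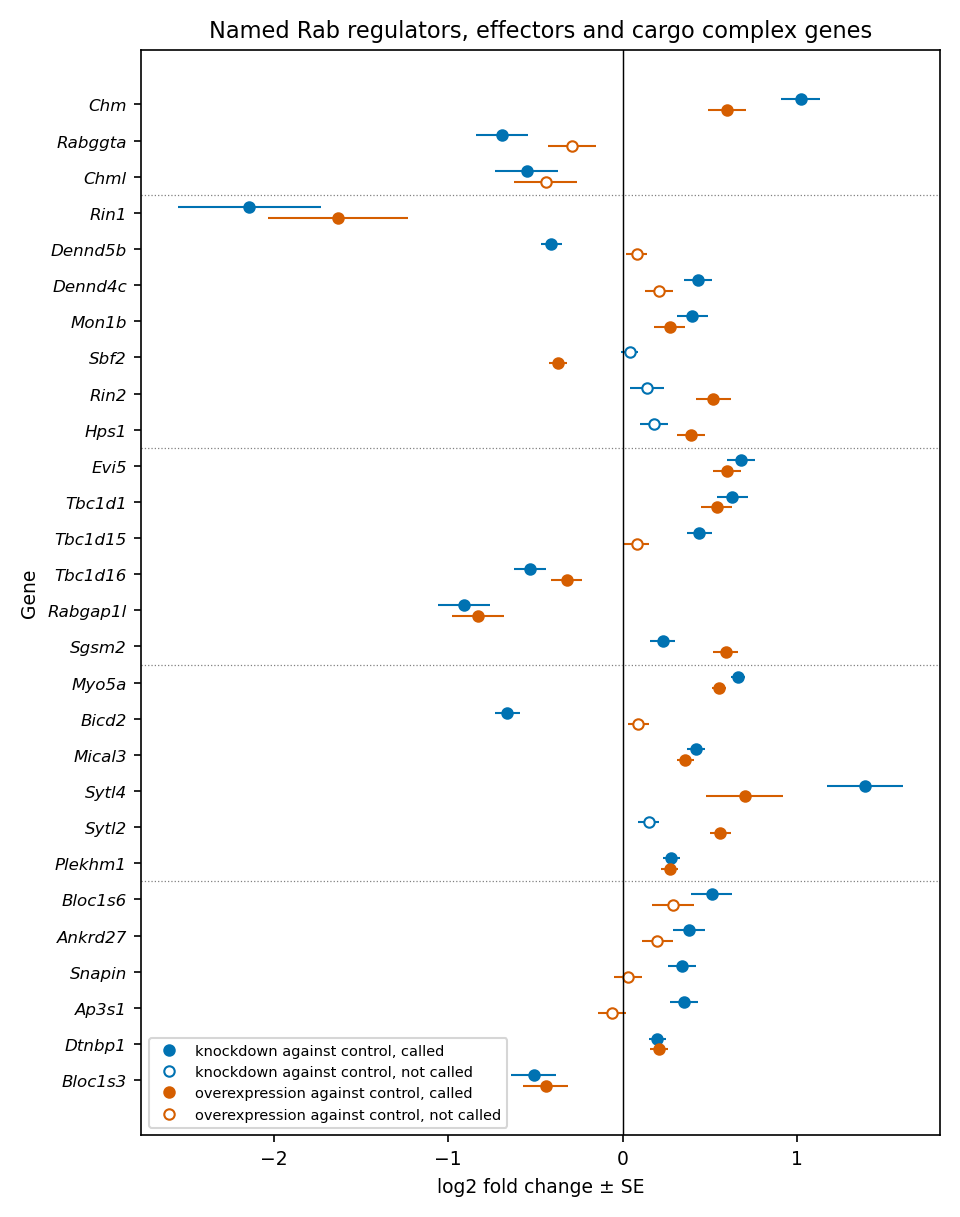
Log2 fold change against control with its SE for named genes of 5 lists, separated by dotted lines: prenylation, exchange factors, GTPase-activating proteins, effectors and melanosome cargo complexes, from the top. Filled points were called and open points were not. Chm, Evi5 and Myo5a lie to the right of 0 in both lines, Rin1 and Rabgap1l to the left, and Bicd2 and Dennd5b are called on the left in knockdown alone.

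The complexes that sort cargo to melanosomes with Rab32 and Rab38 (the BLOC and AP complexes, SNAREs and partners) had 6 of 25 genes higher and 4 lower in knockdown, and 2 higher and 1 lower in overexpression. That is 40% and 12% called, above and below the 35.4% and 24.3% of all genes. These counts were not tested against each other. The BLOC-1 subunit Bloc1s6 (pallidin) was 25.6 ± 3.52 CPM in controls and 36.3 ± 4.38 in knockdown (0.51, adjusted p = 0.00249). Ankrd27 (VARP), which binds Rab32 and Rab38, rose there by 0.38, the BLOC-1 subunit Snapin by 0.34 and the AP-3 subunit Ap3s1 by 0.35. Bloc1s3 fell in both lines (-0.51 and -0.44), in overexpression not without control replicate 2 (-0.37) or overexpression replicate 1 (-0.38) or 3 (-0.43), and Dtnbp1 (dysbindin) rose in both (0.20 and 0.21).

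With the length offset, the knockdown calls of Ankrd27, Bloc1s6, Chml, Evi5, Sgsm2, Sytl4 and Tbc1d15 were lost, as were the overexpression calls of Bloc1s3, Dtnbp1, Evi5, Mon1b, Rabgap1l, Sbf2, Sytl4 and Tbc1d16, all with the same sign. Some of these log2 fold changes hardly moved, such as Bloc1s3 (-0.44), Dtnbp1 (0.20) and Sgsm2 (0.25), while Chml went from -0.55 to -0.24, Sbf2 from -0.37 to -0.22 and Rabgap1l from -0.83 to -0.54. The effector counts were then 5 higher and 1 lower in knockdown and 6 higher and 0 lower in overexpression, where calls over all genes had dropped to 21.4% and 12.1%.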

How the data were processed

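Poly(A) RNA of 9 libraries of 3 B16F10 lines was made into libraries with a kit that does not mark strand, so a gene and its antisense partner cannot be told apart, and was sequenced as paired ends. The deposited tables hold 1 row per transcript. Per the file headers they give an estimated count (fragments assigned, not always whole), TPM and an effective length (bases). The authors used Salmon 1.4.0, MultiQC 1.11 and DESeq2 1.34.0 on mm39, per the submitters' processing notes. No source used here gives the trimming or the annotation release.

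Transcripts were matched to genes with GENCODE M21 (GRCm38): 137161 of 140789 matched, and the rest held 0.554% to 0.654% of a library's counts and were left out. Gene totals of the deposited estimated counts were rounded to whole numbers. Libraries of a line differed beyond sampling noise (chi-square per degree of freedom 4.78 to 11.25), so none was a copy. The test was edgeR 4.0.16 (R 4.3.3): filterByExpr, TMM, a quasi-likelihood fit with line as the only term over all 9 libraries, and Benjamini-Hochberg adjustment over all genes tested. SE is the log2 fold change divided by the root of its F statistic. CPM uses TMM library sizes, and TPM, as deposited, serves to compare genes per length. The steps were also run on simulated counts in which few genes changed. In these data 35.4% of genes were called in knockdown, so that run does not check calls at such a share.

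Alternatives were DESeq2-style size factors, DESeq2 1.42.0, limma-voom (limma 3.58.1), no filter, a filter of 1 CPM in 3 libraries, a replicate block, an offset for average effective length, the 2 lines compared alone and the removal of each library. For the regulator, effector and cargo genes they were added after the data were seen. The members and lists were chosen with earlier results of these data known. Named Rabs were the melanosome Rabs, Rab27b, the 6 most abundant, those called in opposite directions, and up to 10 called rises and falls per comparison with a mean of 1 CPM in 1 line and no overlap between libraries. Named regulators were up to 4 per list and comparison with the lowest adjusted p. Of these, 1 gene is counted in its list but not reported here. Dennd2b and Vamp7 were not used here. Shared sequence is the share of a gene's 31-base words that another gene also holds.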

Additional observations from a re-analysis of the deposited data

How the results depend on the processing

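No called Rab change reversed its sign under any of the alternatives. With an offset for average transcript length, 2 Rabs were higher and 3 lower in overexpression against knockdown, 4 higher and 2 lower in overexpression against control, and 7 lower in knockdown. The median of the other Rabs in overexpression was then -0.09, Rab17 in overexpression 0.69, Rab32 in knockdown -0.21 and Rab38 between the perturbed lines 0.10. The last was 0.11, and not called, with DESeq2-style size factors (adjusted p = 0.0561), with no filter on low counts (0.112) and with the 2 lines compared alone (0.0794). Same-numbered libraries of different lines correlated at -0.09 to 0.13 in their deviations from the line means, and other pairs at -0.13 to 0.09. No pairing by number was seen in these correlations, which with 3 libraries per line cannot exclude one. With the replicate block 17, 15 and 12 Rabs were called in the 3 comparisons, Rab17 in overexpression was 0.54 (adjusted p = 0.0601) and Rab38 between the perturbed lines 0.11 (0.0676).

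Leaving out 1 library at a time, called Rabs were 8 to 9 higher and 7 to 10 lower in knockdown, 5 to 8 higher and 7 to 8 lower in overexpression, and 4 to 5 higher and 4 to 8 lower between the perturbed lines. Rab17 in overexpression ranged from 0.49 to 0.60, Rab32 in knockdown from -0.28 to -0.18 and Rab38 between the perturbed lines from 0.09 to 0.12. The median of the melanosome Rabs ranged from 0.27 (without overexpression replicate 1) to 0.29 between the perturbed lines and from 0.32 to 0.36 (without control replicate 3) in overexpression, and that of the other Rabs in knockdown from -0.02 to 0.04 (without control replicate 1). Rab27b rests on 9, 70 and 28 counts in the 3 lines. What depth limits at other levels was not tested.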
